A study of Rattus norvegicus with 9 samples.

Results

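Levels of 9 basement membrane genes were followed in cultured rat cardiac fibroblasts from fetal, neonatal and adult hearts. The genes were taken by name from a list of 9 symbols, with no measured value in the rule: the laminin alpha chain genes Lama1, Lama4 and Lama5, the beta chain genes Lamb2 and Lamb3, the gamma chain genes Lamc1 and Lamc3, the nidogen gene Nid2 and the agrin gene Agrn. All 9 were among the 17337 genes of the count table. Of these, 8 passed the filter on low counts and were tested with 11337 genes in all, and Lamc3 did not pass.

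The libraries came from Sprague Dawley rats of 3 ages, with 3 libraries each: fetal at embryonic day 18, neonatal at postnatal day 1 and adult at 7 weeks. Cells of every age were used at passage 0 after growth to confluency in DMEM with 10% fetal bovine serum, 0.1 mM ascorbic acid and antibiotics, so serum and ascorbic acid were shared by all groups. No transgene, drug or sort is named in the labels. The labels do not state whether the 3 libraries of an age came from separate animals or pools, so the p-values below measure the spread between these libraries, which may be technical.

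Laminins are cross-shaped proteins of an alpha, a beta and a gamma chain that are joined in the cell, secreted and polymerised into the sheet on which a basement membrane is built. Nidogens bind the gamma 1 chain and type IV collagen and so link both networks, while agrin is a large heparan sulphate proteoglycan that binds laminin at one end and the receptor dystroglycan at the other. In the heart such sheets surround cardiomyocytes, vessels and nerves, and fibroblasts contribute several of their components.

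Between 13392825 and 22850491 reads were assigned to genes per library, and the adult libraries were the shallowest. Fetal replicate 3 stood apart: its summed level of epithelial markers (11 of 12 in the table) was 319 CPM (counts scaled to a common library size), against 7.13 and 8.51 CPM in the other fetal libraries and at most 2.59 CPM in any neonatal or adult library. All 12 fibroblast markers were counted at every age, though Col1a2 stayed under 1 CPM in every library. Their sum in fetal replicate 3 was 37310 CPM, against 79280 and 77790 CPM in fetal replicates 1 and 2, 96030 to 103300 CPM in neonatal and 40570 to 52200 CPM in adult libraries. The matrix genes Col1a1, Col3a1 and Fn1 were the highest of that list in every library. Of the 12 genes 4 (Dcn, Pdgfra, Tcf21 and Vim) were higher and 2 (Lum and Ddr2) lower in every adult library. Cardiomyocyte markers (14 of 15 in the table) summed to 10730 to 15090 CPM in fetal, 6775 to 7467 CPM in neonatal and 306 to 321 CPM in adult libraries, with Csrp3 at 0 in all adult libraries. Nearly all of the adult sum was Tnnt2, at 302.9 to 315.5 CPM, and every other gene of the list was at most 1.453 CPM there. Macrophage markers (14 of 14) summed to 15.1 to 76.3 CPM in fetal, 173 to 192 CPM in neonatal and 4705 to 6506 CPM in adult libraries. Schwann cell markers (9 genes) went from 111 to 152 CPM in fetal to 657 to 711 CPM in adult libraries, and endothelial markers (14 of 14) summed to 201 to 241 CPM in the fetal, 148.7 to 149.6 CPM in the neonatal and 186 to 206 CPM in the adult libraries, with Cldn5 at 0 in the fetal libraries. Within that list 5 genes were higher and 2 lower in every adult library, with Tie1 at 0.353 to 0.486 CPM in fetal and 68.6 to 72.5 CPM in adult libraries and Flt1 at 166 to 214 and 72.4 to 78.8 CPM. Mural cell markers (10 genes) summed to 1724 to 2856 CPM in the fetal libraries, 3790.0 to 3898 CPM in the neonatal and 1511 to 1792 CPM in the adult, and epicardial and mesothelial markers (10 of 12) to 216 to 315, 150.1 to 157.5 and 210.3 to 496.5 CPM, with Itln1 at 0 in fetal and neonatal and Bnc1 at 0 in adult libraries. Of the epicardial and mesothelial genes 1 was higher and 6 were lower in every adult library. Most of the adult sum was Aldh1a2, at 437, 254 and 169 CPM. The part of these shifts in the results below was not tested, and in such bulk samples fewer cells of a type and less RNA per cell cannot be told apart.

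Genes with long transcripts were lower in the adult libraries as a class, and all 9 genes are long, with 4076 to 11307 exon bases. The 1857 tested genes with at least 4000 exon bases had a median log2 change of -0.44 in adult against fetal and -0.47 in adult against neonatal libraries, while the 4980 genes under 2000 bases had medians of 0.20 and 0.22. The plot of fold changes therefore sets the members beside genes of like length, meaning tested genes within 20% of the member's exon length. The partner genes described further on were not set beside such genes.

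The alpha chain sets which receptors a laminin binds, and Lama4, whose chain is typical of vessels, muscle and other mesenchymal tissue, was the highest of the measured alpha chains at every age. Other alpha chain genes were not analysed here. Lama4 (chr20:44060715-44201966 of rn6, plus strand, 6051 exon bases) measured 546, 559 and 382 CPM in the fetal libraries, 863, 891 and 872 CPM in the neonatal and 535, 506 and 521 CPM in the adult libraries. All neonatal libraries lay above all others, and the fetal and adult ranges overlapped. The neonatal level was 1.77-fold that of the fetal libraries (log2 0.82, SE 0.129, edgeR adjusted p = 0.00158), and the adult level was 1.68-fold lower than the neonatal (log2 -0.75, SE 0.129, adjusted p = 0.000744). Adult against fetal gave a log2 value of 0.07 (SE 0.129, adjusted p = 0.644), which was -0.09 without fetal replicate 3 (adjusted p = 0.113). With the trend on exon length removed, the adult difference from fetal was 0.54 (adjusted p = 0.00285) and that from neonatal -0.25 (adjusted p = 0.0936).

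Lama5, which encodes the large alpha chain of most mature epithelial and vascular basement membranes, was lower in adult libraries than at both younger ages. Its locus, chr3:175553042-175601112 on the minus strand, carries 11307 exon bases, the most of the 9 genes. Fetal libraries gave 435, 409 and 234 CPM, neonatal libraries 357, 401 and 398 CPM and adult libraries 116, 119 and 127 CPM. Every adult library was below every other library, whereas the fetal and neonatal ranges overlapped (log2 0.10, SE 0.196, adjusted p = 0.711). The adult level was 2.97-fold lower than fetal (log2 -1.57, SE 0.201, adjusted p = 1e-04) and 3.19-fold lower than neonatal (log2 -1.67, SE 0.202, adjusted p = 9.61e-05). Among 90 genes of like length the median change was -0.83 in adult against fetal, and 26.7% of them changed to a lower value than Lama5.

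Lama1, the alpha chain of the first embryonic basement membranes, fell from a low level to near the detection limit. The gene (chr9:115916907-116042123, plus strand, 10570 exon bases) measured 29.9, 28.5 and 11.1 CPM in the 3 fetal libraries. The neonatal libraries gave 13.7, 14.8 and 14.0 CPM, and the adult libraries 2.98, 2.09 and 0.898 CPM. All adult libraries were the lowest, and fetal replicate 3 lay below the neonatal libraries while the other fetal libraries lay above them. Adult cells had 11.6-fold less than fetal (log2 -3.54, SE 0.458, adjusted p = 0.000115) and 7.10-fold less than neonatal cells (log2 -2.83, SE 0.460, adjusted p = 0.000624). The neonatal difference from fetal was not called (log2 -0.71, SE 0.373, adjusted p = 0.163), but without fetal replicate 3 it was (log2 -1.04, adjusted p = 0.00162). Of 125 genes of like length, 10.4% changed to a lower value in adult against fetal libraries, and their median was -0.91.

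Beta chains differ in tissue and stage, and Lamb2, the beta chain known from neuromuscular junctions, kidney filters and vessel walls, was the only tested member called higher than fetal in both later ages, as Lama4 also was once the length trend was removed. Lamb2 (chr8:117268374-117280514, plus strand, 5581 exon bases) measured 279, 276 and 184 CPM in the fetal libraries. It measured 412, 456 and 471 CPM in the neonatal and 422, 410.3 and 394 CPM in the adult libraries, so every later library was above every fetal one and the later ages overlapped. The level was 1.81-fold higher in neonatal (log2 0.86, SE 0.145, adjusted p = 0.00221) and 1.66-fold higher in adult than in fetal libraries (log2 0.73, SE 0.144, adjusted p = 0.00138). Neonatal and adult levels gave a log2 difference of -0.13 (SE 0.144, adjusted p = 0.46). Of 988 genes of like length, whose median adult change from fetal was -0.41, 87.4% lay below Lamb2.

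Lamb3 is a chain of the anchoring laminin of skin and other epithelia. It had the largest adult fold change of the members. Lamb3 (chr13:112031657-112073185, plus strand, 4076 exon bases) measured 34.7, 36.6 and 54.5 CPM in the fetal libraries. Neonatal libraries gave 24.8, 29.2 and 29.8 CPM, and adult libraries 1.38, 1.95 and 1.05 CPM. The 3 ages did not overlap, and fetal replicate 3 was the highest library. Adult libraries were 28.5-fold lower than fetal (log2 -4.83, SE 0.258, adjusted p = 3.03e-07) and 19.0-fold lower than neonatal (log2 -4.25, SE 0.259, adjusted p = 1.31e-06). Neonatal against fetal gave log2 -0.58 (SE 0.187, adjusted p = 0.0363), a call that did not hold after leaving out neonatal replicate 1, 2 or 3 (adjusted p 0.0841 to 0.135). Of 1896 genes of like length, 3.16% fell further than Lamb3 in adult against fetal libraries.

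The library with the most Lamb3, fetal replicate 3, was also the library with 319 CPM of epithelial markers, among them Cdh1 at 113 CPM and Epcam at 47.0 CPM. Without that library the adult fall of Lamb3 from fetal was 24.3-fold (adjusted p = 1.01e-09). Fetal replicates 1 and 2 and the neonatal libraries held 24.8 to 36.6 CPM of Lamb3 with at most 8.51 CPM of the 11 epithelial markers. The keratins counted with the epicardial and mesothelial markers measured 24.4 to 27.4 (Krt19), 10.15 to 11.3 (Krt8) and 10.15 to 11.2 CPM (Krt18) in fetal replicates 1 and 2. They were at most 3.494 CPM in neonatal and 1.227 CPM in adult libraries. The part of epithelial or mesothelial cells in the Lamb3 levels was not tested.

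**Figure D1:**
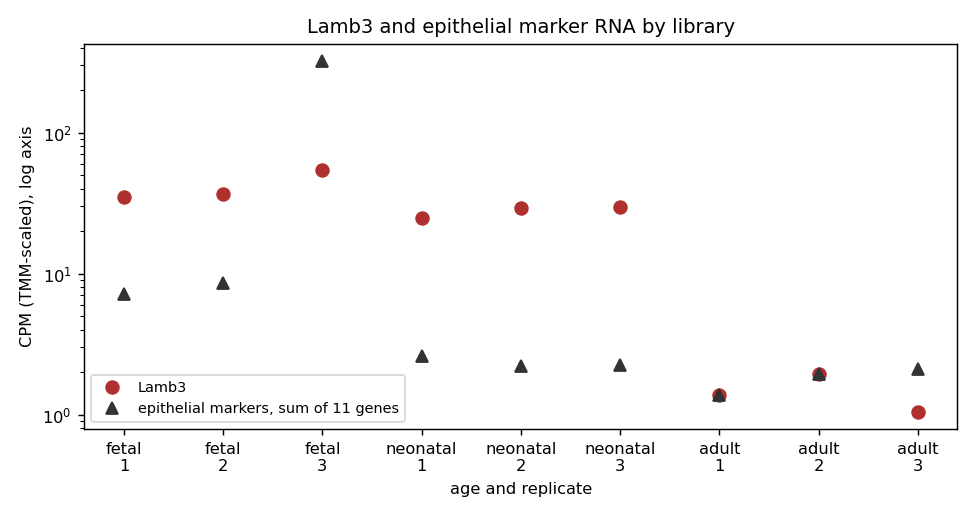
CPM (vertical axis, log scale) of Lamb3 (circles) and the sum of 11 epithelial markers (triangles) in each of the 9 libraries. Both are highest in fetal replicate 3, while the other fetal and the neonatal libraries hold 24.8 to 36.6 CPM of Lamb3 with at most 8.51 CPM of these 11 markers, and adult libraries are low for both. The part of epithelial cells in the Lamb3 levels was not tested.

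Lamc1, the gamma chain shared by most laminins and the one that nidogens bind, had the highest level per exon length of the 9 genes at every age. The gene (chr13:70656727-70783515, minus strand, 7636 exon bases) measured 1616, 1717 and 1022 CPM in the fetal, 2843, 2953 and 2799.8 CPM in the neonatal and 1116, 1029.8 and 1039 CPM in the adult libraries. Neonatal libraries were all above the others. Fetal replicate 3 was below all adult libraries, and fetal replicates 1 and 2 were above them. The neonatal level was 1.97-fold the fetal (log2 0.98, SE 0.168, adjusted p = 0.0024), and the adult level was 2.70-fold lower than the neonatal (log2 -1.43, SE 0.170, adjusted p = 7.39e-05). Of 433 genes of like length, whose median adult change from neonatal was -0.60, 15.9% were lower than Lamc1. Adult against fetal passed narrowly at log2 -0.45 (SE 0.167, adjusted p = 0.0351). That last call was lost when any library but fetal replicate 3 was left out (adjusted p 0.0507 to 0.128) and held without fetal replicate 3 (log2 -0.65, adjusted p = 1.33e-06), and removing the length trend gave 0.16 (adjusted p = 0.37).

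Lamc3, a gamma chain described in nerve, retina and skin, was barely counted. It had 3, 5 and 0 reads in the fetal, 6, 2 and 8 in the neonatal and 0, 0 and 0 in the adult libraries. A count of 0 allows up to 3 reads, or 0.217 to 0.229 CPM in the adult libraries. Since the fetal libraries held at most 0.22 CPM, no difference between fetal and adult was detectable at this depth. A fit without the filter gave an adjusted p of 0.0983 for adult against fetal and 0.0352 for adult against neonatal libraries, the latter resting on the 6, 2 and 8 neonatal reads.

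Nid2, the nidogen with the narrower distribution in adult tissues, fell in steps over all 3 ages. Nid2 (chr15:4893999-4951893, minus strand, 4752 exon bases) measured 417, 403 and 419.9 CPM in the fetal libraries, with replicate 3 level with the others. The neonatal libraries gave 146, 159.6 and 149.9 CPM, and the adult libraries 25.9, 23.7 and 19.8 CPM. The ranges of the 3 ages were far apart. The level was 2.72-fold lower in neonatal than in fetal (log2 -1.44, SE 0.0902, adjusted p = 1.32e-05) and 6.57-fold lower in adult than in neonatal libraries (log2 -2.72, SE 0.0973, adjusted p = 5.24e-08). From fetal to adult it was 17.9-fold lower (log2 -4.16, SE 0.103, adjusted p = 3.43e-09), the smallest adjusted p of the members. Genes of like length (1416) had a median of -0.30 in that comparison, and 4.94% of them fell further. Nid1, the paralogue of Nid2, was not analysed here.

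Agrn, which encodes agrin, the organiser of the neuromuscular junction and a matrix component of the young heart, peaked in neonatal libraries. Agrn (chr5:173589911-173611202, minus strand, 7279 exon bases) measured 109, 111 and 97.8 CPM in fetal libraries, 134, 144 and 141 CPM in neonatal and 70.9, 64.0 and 70.9 CPM in adult libraries. The ages did not overlap: neonatal was highest, then fetal, then adult. Neonatal libraries were 1.32-fold above fetal (log2 0.40, SE 0.0716, adjusted p = 0.00302). Adult libraries were 1.54-fold below fetal (log2 -0.63, SE 0.0726, adjusted p = 4.39e-05) and 2.03-fold below neonatal (log2 -1.02, SE 0.0729, adjusted p = 3.14e-06). The median of 484 genes of like length was also -0.63 in adult against fetal libraries, 50.0% of them were lower than Agrn, and with the length trend removed the value was -0.04 (adjusted p = 0.622). Against neonatal libraries 25.6% of them were lower than Agrn. The counts do not separate agrin's splice forms, which differ in receptor clustering activity.

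**Figure D2:**
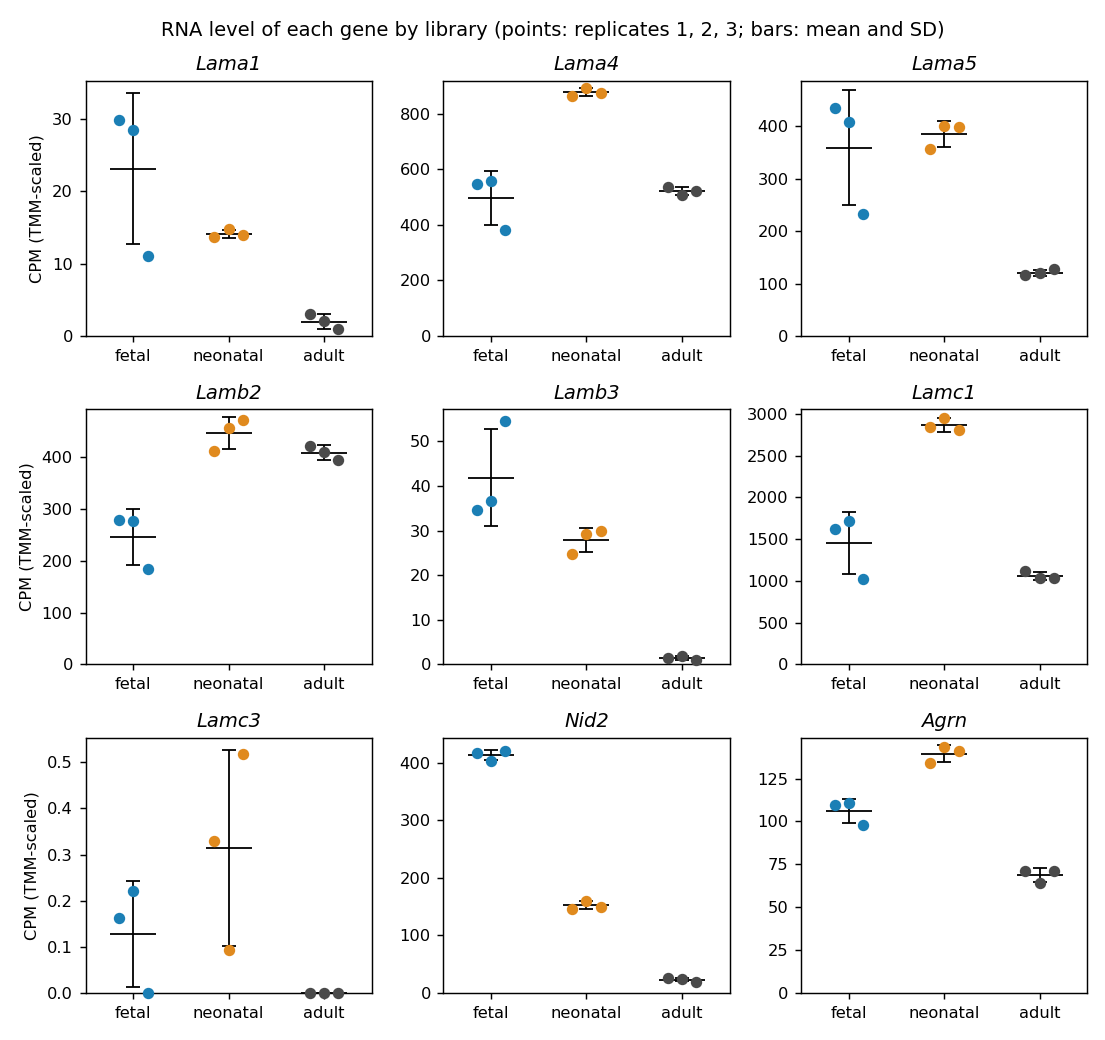
CPM on linear axes from 0, scaled per gene, for each of the 9 genes in fetal, neonatal and adult libraries, with 1 point per library, the mean as a long dash and the SD as the error bar (n = 3). Nid2 steps down at each age, Lama4, Lamc1 and Agrn are highest in the neonatal libraries, and Lamb2 alone keeps all its adult libraries above all its fetal ones.

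Members called in each comparison were set beside all genes tested. In neonatal against fetal libraries 4 of the 8 tested members rose (Lama4, Lamb2, Lamc1, Agrn) and 2 fell (Lamb3, Nid2), where 36.3% of all tested genes were called, 18.3% higher and 18.0% lower. In adult against fetal libraries 1 rose (Lamb2) and 6 fell, where 70.5% of genes were called, 34.9% higher and 35.5% lower. In adult against neonatal libraries none rose and 7 fell, where 63.5% were called, 31.6% higher and 31.8% lower, and Lamb2 was the member not called. The median log2 change of the 8 was 0.25, -1.10 and -1.55 in these comparisons, beside medians of all genes between -0.01 and 0.00. All 8 have at least 4076 exon bases. Tested genes of at least 4000 bases had medians of -0.01, -0.44 and -0.47, and 50.9%, 70.3% and 75.0% of them were below 0. The libraries of the compared ages did not overlap for 6, 6 and 7 of the 8 members, against 57.4%, 71.8% and 76.1% of all tested genes. Scaling by library size alone put the median of all genes at -0.175, -0.122 and 0.0532 on the log2 scale, and moved the share of called genes that were higher in neonatal than fetal libraries from 50.4% to 29.0%.

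**Figure D3:**
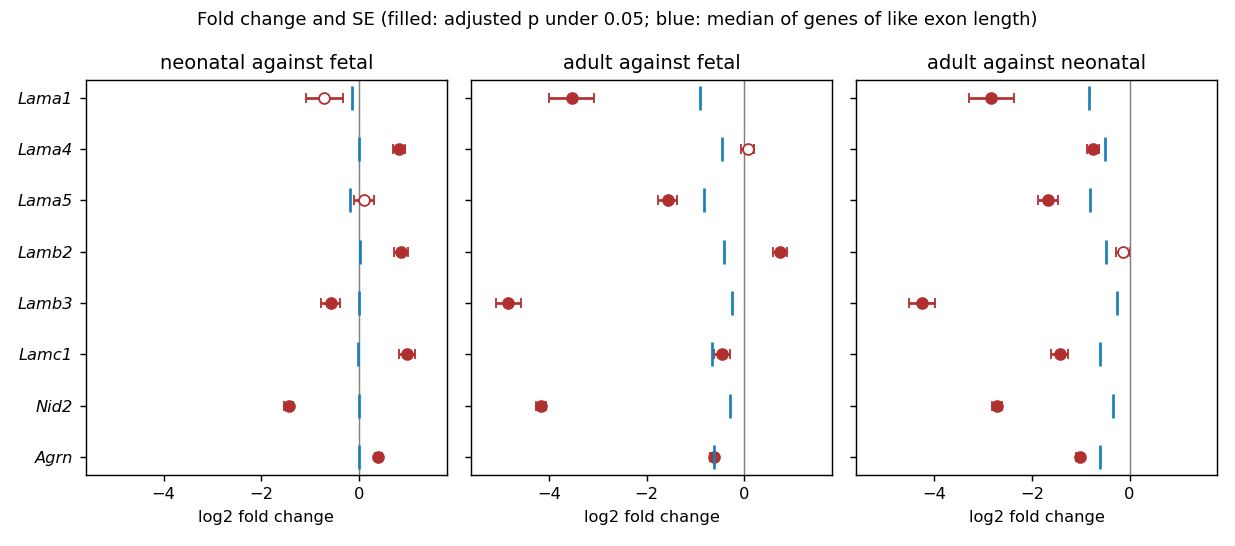
Fitted log2 fold changes (horizontal axis) of the 8 tested members in the 3 pairwise comparisons, with the standard error as the bar, filled where the adjusted p was under 0.05, and a blue tick at the median of genes of like exon length. Nid2, Lamb3 and Lama1 lie farthest below 0 and left of the ticks in both adult comparisons, from -2.72 to -4.83, while Agrn lies on its tick in adult against fetal.

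The shape over the 3 ages was examined by setting each neonatal level against the midpoint of the fetal and adult log2 levels. All 8 tested members lay above that midpoint, where 42.4% of all tested genes were called, 23.0% higher and 19.4% lower. The median was 0.84 for the members and 0.01 for all genes. Lamb3 (log2 1.83, SE 0.183, adjusted p = 0.000123) and Lamc1 (log2 1.21, SE 0.140, adjusted p = 0.000254) stood highest above it. Lama1 (1.06), Lama5 (0.89), Lama4 (0.79), Agrn (0.71) and Nid2 (0.64) followed, and Lamb2 was lowest at 0.49 (adjusted p = 0.0109). For Lamb3, Lama1, Lama5 and Nid2 the log2 fall was larger between the neonatal and adult than between the fetal and neonatal ages, or there was no called change between the latter. Lama4, Lamc1 and Agrn had a neonatal level above both other ages. The mural marker sum did too (at least 3790.0 CPM in neonatal and at most 2856 CPM in other libraries). So did the fibroblast marker sum (at least 96030 against at most 79280 CPM), in which Col1a1, Col3a1 and Fn1 were the highest genes. Of the 12 fibroblast genes 7 were called above the midpoint and 1 below. Dcn (50.1, 58.1 and 353 CPM in fetal, neonatal and adult libraries), Tcf21 (11.8, 86.1 and 149 CPM), Pdgfra and Vim averaged highest in adults. Of the 10 mural genes 7 were called above the midpoint and 0 below, and Pdgfrb averaged 2005 CPM in neonatal libraries. Des (377, 229 and 14.6 CPM in fetal, neonatal and adult libraries) and Cnn1 (748, 395 and 81.5 CPM) instead fell at each age. The part of either marker list in this course was not tested. Genes of at least 4000 exon bases had a median of 0.22, and 6 of the 8 were called once the length trend was removed, with Lama1 (0.69, adjusted p = 0.131) and Lamb2 (0.25, adjusted p = 0.113) lost. The Lama1 call was also lost without neonatal replicate 1, 2 or 3 or adult replicate 2 or 3 (adjusted p 0.0645 to 0.104). By library size alone the median of all genes was -0.107 and the share higher among called genes went from 54.2% to 37.9%.

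Levels of different genes were compared per length, as CPM per kilobase of exon. In fetal libraries Lamc1 led at 190.1 ± 49.2 (SD, n = 3), followed by Nid2 at 87.0 ± 1.98 and Lama4 at 81.9 ± 16.3, whose libraries overlapped. Lamb2 (44.1) and Lama5 (31.8) came next and also overlapped, then Agrn (14.6), Lamb3 (10.3), Lama1 (2.19) and Lamc3 (0.02). In neonatal libraries Lamc1 rose to 375 ± 10.4 and Nid2 at 32.0 ± 1.46 was overlapped by Lama5 at 34.1 ± 2.19, below Lama4 (145) and Lamb2 (80.0). In adult libraries Nid2 at 4.86 ± 0.650 stood below Agrn at 9.43 ± 0.544 and Lama5 at 10.7 ± 0.515. Lamb3 (0.358) and Lama1 (0.188) overlapped in the adult order, above Lamc3 at 0. Among all tested genes Nid2 moved from percentile 91.7 of level per length at the fetal age to 75.7 in neonates and 29.8 in adults, while Lamc1 stayed between percentiles 93.9 and 98.6.

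Shares of the measured chains within the alpha and beta classes do not depend on how libraries were scaled. The trend on exon length was not removed from them. Genes of like length had adult against fetal medians of -0.83 for Lama5, -0.46 for Lama4, -0.41 for Lamb2 and -0.255 for Lamb3. The part of that trend in the shares was not tested. Other alpha and beta chain genes were not analysed here, so the shares are of the chains measured, not of all laminin. Lama4 made up 71.1% ± 2.99 (SD, n = 3) of measured alpha chains in fetal libraries, compared with 80.3% ± 0.813 at the neonatal age and 88.8% ± 0.518 in adults. Lama5 made up 29.2%, 27.6% and 24.3% in the fetal, 18.0%, 19.3% and 19.5% in the neonatal and 10.4%, 11.2% and 11.6% in the adult libraries, with no overlap between ages. Of the measured beta chains Lamb3 was 14.6%, 15.4% and 28.9% in fetal libraries, 7.60% to 8.06% in neonatal and 0.363% to 0.646% in adult libraries. The Lamb3 share was largest in fetal replicate 3.

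**Figure D4:**
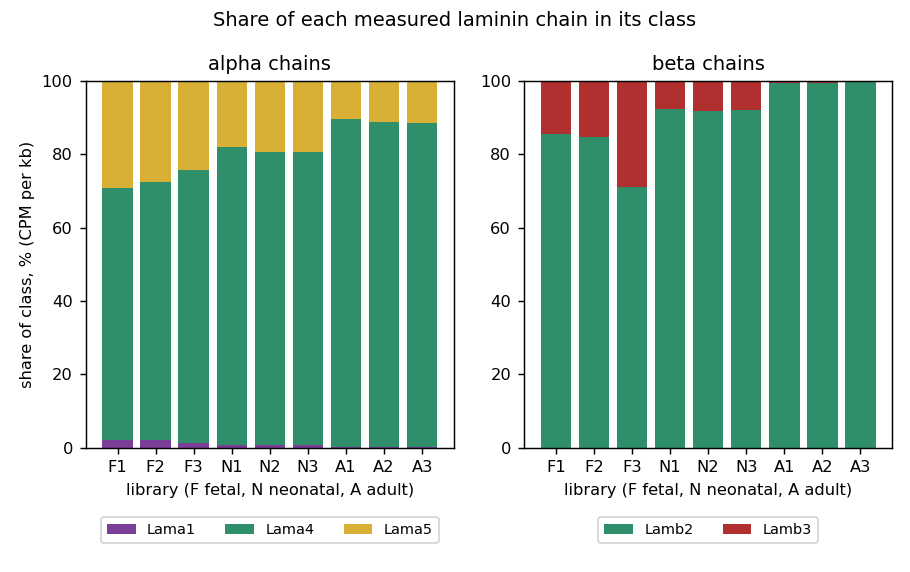
Percent of each measured laminin chain within the alpha and beta classes, from CPM per kilobase of exon, with 1 stacked bar per library (F fetal, N neonatal, A adult). The Lama5 and Lamb3 shares shrink with age, and the Lamb3 share is largest in fetal replicate 3.

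Ratios between partner genes were also taken within each library, again without removing the trend on exon length. Genes of like length had adult against fetal medians of -0.66 for Lamc1, -0.30 for Nid2, -0.63 for Agrn and -0.41 for Lamb2. The part of that trend in the ratios was not tested. The ratio of Lamc1 to Nid2 per length, a laminin chain and the nidogen that binds it, was 1.52 to 2.65 in fetal, 11.5 to 12.1 in neonatal and 26.9 to 32.7 in adult libraries. Nid2 to Agrn ran the other way, from 5.57 to 6.58 in fetal through 1.62 to 1.70 in neonatal to 0.427 to 0.566 in adult libraries. Lamc1 to Lamb2, the highest of the measured gamma and beta chains, was 4.06 to 4.55 in fetal and 4.35 to 5.04 in neonatal libraries, which overlapped, and 1.84 to 1.93 in adult libraries.

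Promoters are shown for the highest member, Lamc1, for the longest, Lama5, and for the tested chains with the lowest adult levels, Lama1 and Lamb3. Each is the 250 bases before the RefSeq start in build GRCr8, 5′ to 3′ on the gene's strand, and the counts above use rn6. Entries for 7 of the 9 genes were matched, without Nid2 and Lamb2. Capitals mark the searched motifs on either strand: GGGCGG (the GC box core, written CCGCCC where it lies on the other strand), the CCAAT box, the TATAAA element and the TEAD factor core GGAATG.
Lamc1, chr13:68051987-68052236, minus strand: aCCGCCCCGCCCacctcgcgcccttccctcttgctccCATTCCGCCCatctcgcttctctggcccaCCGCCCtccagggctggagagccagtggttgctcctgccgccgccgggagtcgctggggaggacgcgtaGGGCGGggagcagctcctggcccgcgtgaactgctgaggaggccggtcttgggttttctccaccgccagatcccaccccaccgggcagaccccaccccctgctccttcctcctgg
Lama5, chr3:187695975-187696224, minus strand: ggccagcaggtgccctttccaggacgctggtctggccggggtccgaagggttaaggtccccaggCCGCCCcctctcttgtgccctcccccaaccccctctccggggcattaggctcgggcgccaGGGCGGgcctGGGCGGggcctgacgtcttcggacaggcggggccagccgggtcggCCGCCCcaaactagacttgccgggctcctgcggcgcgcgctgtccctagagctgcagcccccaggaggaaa
Lama1, chr9:115139298-115139547, plus strand: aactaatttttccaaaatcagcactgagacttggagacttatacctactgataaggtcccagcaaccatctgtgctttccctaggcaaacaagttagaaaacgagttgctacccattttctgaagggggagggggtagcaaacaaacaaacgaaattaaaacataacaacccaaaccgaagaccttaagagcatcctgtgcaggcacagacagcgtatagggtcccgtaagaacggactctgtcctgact
Lamb3, chr13:107362303-107362552, plus strand: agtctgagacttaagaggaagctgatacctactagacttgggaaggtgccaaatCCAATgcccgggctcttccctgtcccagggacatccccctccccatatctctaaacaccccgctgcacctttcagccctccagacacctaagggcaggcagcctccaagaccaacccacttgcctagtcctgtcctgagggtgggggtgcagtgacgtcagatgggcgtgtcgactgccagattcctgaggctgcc
Lamc1 held 5 GC box cores, and a GGAATG on the other strand overlapped the end of a core. Lama5 held 4 GC box cores, Lamb3 held 1 CCAAT, and Lama1 held none of the motifs. Among 27457 promoters of the same length 32.4% held GGGCGG, 34.3% CCAAT, 13.1% TATAAA and 11.8% GGAATG. Lamc1 had 19 CpG and 71.2% GC and Lama5 20 CpG and 72.8% GC, against a median of 6 CpG and 52.0% GC over all promoters. Lama1 had 6 CpG and Lamb3 5 CpG. Of the matched genes not shown, Lama4 held 1 TATAAA, Lamc3 held 1 GC box core and Agrn held none. A match in such a window is a description of its letters, not a bound site.

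The remaining basement membrane genes in the table were read from the same fit, 19 of them tested. For these and the other partner genes below, the shares over all tested genes were 18.3% higher and 18.0% lower in neonatal against fetal, 34.9% and 35.5% in adult against fetal, and 31.6% and 31.8% in adult against neonatal libraries. In neonatal against fetal libraries 7 rose and 4 fell (median log2 0.42), in adult against fetal 6 rose and 8 fell (median -0.47), and in adult against neonatal 4 rose and 12 fell (median -1.35). Col4a3 and Col4a4, type IV collagen chains of specialised basement membranes, fell from 21.2 and 16.7 CPM in fetal to 1.96 and 1.29 CPM in adult libraries (log2 -3.43 and -3.68, SE 0.203 and 0.197, adjusted p = 5.54e-07 and 3.03e-07). Pxdn, the peroxidase that crosslinks type IV collagen, averaged 829.5 CPM in fetal and 1171 CPM in neonatal libraries, against 389.6 CPM in adults, and fell from neonatal to adult (log2 -1.59, SE 0.172, adjusted p = 4.23e-05). Tinagl1, a matrix protein that binds laminin, fell from 176 CPM in neonatal to 30.7 CPM in adult libraries (log2 -2.52, SE 0.224, adjusted p = 1.59e-05). Col15a1, a collagen at the outer face of basement membranes, rose from 20.4 to 65.1 CPM between fetal and neonatal libraries (log2 1.67, SE 0.138, adjusted p = 5.38e-05), and Col17a1, an epithelial anchoring collagen, rose from 0.974 to 9.33 CPM between fetal and adult libraries (log2 3.24, SE 0.188, adjusted p = 4.93e-07). Frem2, of the Fraser complex, had 0 counts in every adult library and was at least 56.3-fold lower there than in fetal libraries, with a floor of 3 counts per library. Without fetal replicate 3 the counts were 9 higher and 5 lower, 7 and 11, and 6 and 12 in the same order of comparisons.

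Laminin receptors join these sheets to the cell, and 12 of them were tested. In neonatal against fetal libraries 4 rose and none fell (median log2 0.71), in adult against fetal 3 rose and 5 fell (median -0.57), and in adult against neonatal 2 rose and 9 fell (median -1.28). Itgb1, the beta 1 integrin chain common to laminin-binding integrins, averaged 3712, 7205 and 3388 CPM in fetal, neonatal and adult libraries. It rose from fetal to neonatal (log2 0.96, SE 0.139, adjusted p = 0.00106) and fell from neonatal to adult (log2 -1.09, SE 0.139, adjusted p = 0.000118). Itga7, the laminin-binding integrin chain of muscle, fell from 134 CPM in neonatal to 7.24 CPM in adult libraries (log2 -4.21, SE 0.346, adjusted p = 1.15e-05). The cardiomyocyte marker sum fell between the same libraries from at least 6775 to at most 321 CPM, nearly all of the adult sum being Tnnt2 (302.9 to 315.5 CPM). The part of these markers in the Itga7 result was not tested. Bcam, which binds laminin alpha 5, fell from 109 CPM in fetal to 29.0 CPM in adult libraries (log2 -1.91, SE 0.141, adjusted p = 2.28e-06). Sdc4, a heparan sulphate syndecan, rose instead, from 180.02 CPM in fetal to 439.7 CPM in adult libraries (log2 1.29, SE 0.226, adjusted p = 0.000781). Without fetal replicate 3 the counts were 5 higher and 0 lower, 3 and 7, and 2 and 9.

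The dystroglycan complex, the receptor shared by laminin and agrin and its link to the cytoskeleton, had 11 tested genes. In neonatal against fetal libraries 6 rose and 1 fell (median log2 0.64), in adult against fetal 2 rose and 7 fell (median -0.87), and in adult against neonatal none rose and 9 fell (median -1.48). Dag1, dystroglycan itself, is also counted among the laminin receptors and averaged 651, 1094 and 815 CPM in fetal, neonatal and adult libraries. It rose from fetal to neonatal (log2 0.75, SE 0.0765, adjusted p = 0.000164) and fell from neonatal to adult (log2 -0.42, SE 0.0762, adjusted p = 0.000961). Utrn, the utrophin that anchors the complex outside muscle, fell from 174 CPM in fetal to 39.0 CPM in adult libraries (log2 -2.16, SE 0.0804, adjusted p = 3.63e-08). Dmd, its muscle counterpart, fell from 37.5 to 6.20 CPM (log2 -2.59, SE 0.358), and Sgcd, the delta sarcoglycan of muscle, from 12.0 to 0.194 CPM (log2 -5.87, SE 0.443, adjusted p = 2.69e-06). The part of the cardiomyocyte markers, lower in all adult libraries, was not tested. Against the midpoint of fetal and adult levels all 11 genes were higher in neonatal libraries (median 0.73), where 23.0% of all tested genes were. Without fetal replicate 3 the counts in the 3 pairs of ages were 7 higher and 1 lower, 2 and 8, and 0 and 10.

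Dystroglycan binds laminin and agrin only through its sugar chain, and 15 genes of that pathway were tested. In neonatal against fetal libraries 2 rose and 2 fell (median 0.12), in adult against fetal 5 rose and 4 fell (median -0.04), and in adult against neonatal 3 rose and 6 fell (median -0.23). Dpm2, a subunit of the enzyme that makes the mannose donor for that chain, rose from 26.2 CPM in fetal to 48.3 CPM in adult libraries (log2 0.88, SE 0.0903, adjusted p = 2e-05). Of 6 tested genes for agrin's receptors and processing, 1 rose and 1 fell in neonatal against fetal, and 1 rose and 3 fell in each adult comparison (medians -0.23, -0.90 and -0.67). Lrp4, the agrin receptor of muscle, fell from 40.3 CPM in fetal and 44.7 CPM in neonatal to 15.9 CPM in adult libraries (log2 -1.34 and -1.49, SE 0.0831 and 0.0833, adjusted p = 7.52e-07 and 7.63e-07). Prss12, the neurotrypsin that cleaves agrin, fell from 11.8 CPM in neonatal to 1.79 CPM in adult libraries (log2 -2.72, SE 0.347). Musk, the kinase that Lrp4 signals through, was near the floor and rose from a mean of 0.357 CPM in neonatal to 2.74 CPM in adult libraries (log2 2.90, SE 0.747, adjusted p = 0.00739). Dok7, the adaptor of that kinase, had 0 counts in every adult library, at least 7.52-fold lower than fetal. Without fetal replicate 3 the sugar chain genes gave 3 higher and 3 lower, 6 and 5, and 5 and 8, and the agrin receptor genes 1 and 1, 2 and 3, and 2 and 3.

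**Figure D5:**
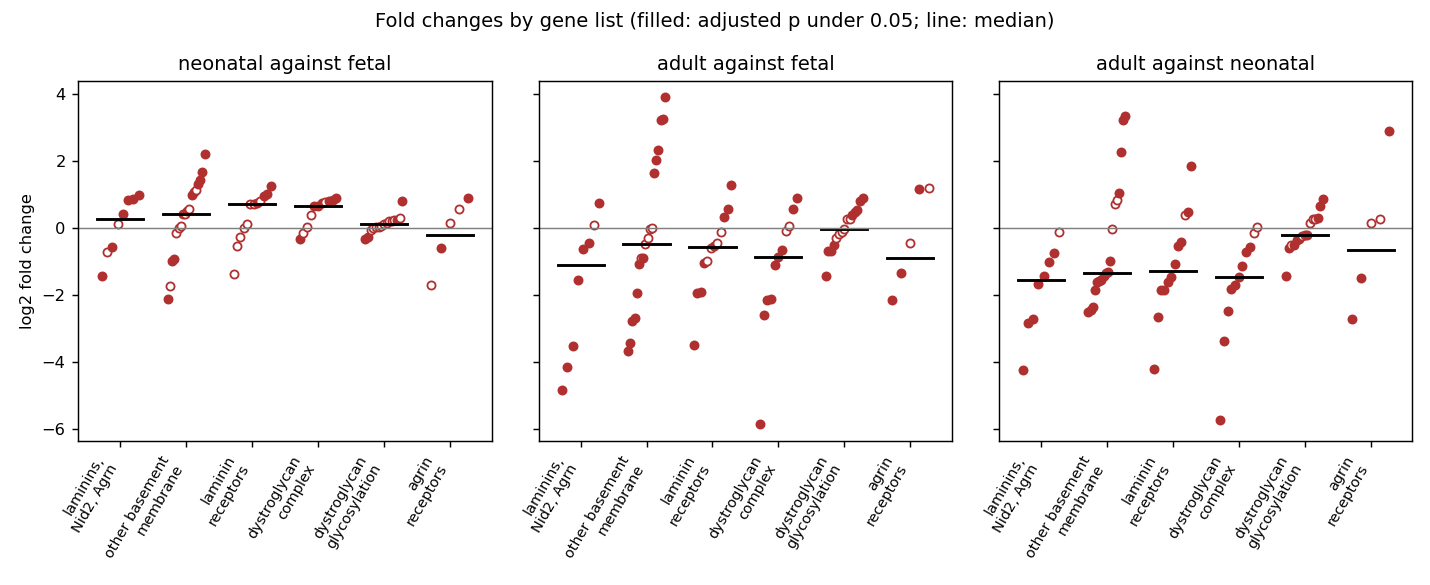
Log2 fold changes (vertical axis) of the members and of each list of partner genes in the 3 pairwise comparisons, filled where the adjusted p was under 0.05, with a line at each list's median. Frem2 and Dok7, with 0 counts in every adult library, are not drawn but enter the medians, and placing them at their bounds in the adult comparisons moved no median.

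The genes whose course was most like that of each member in shape were found by Pearson's r of log2 CPM over the 9 libraries. These share 3 ages and so yield high values for many genes. The size of a change does not enter r. Ylpm1, set beside Lama1 below, averaged 83.9, 81.5 and 67.3 CPM in fetal, neonatal and adult libraries, and Lama1 23.2, 14.1 and 1.99 CPM. For Lamb3 (41.9, 27.9 and 1.46 CPM), Rgs12 averaged 36.3, 34 and 18.3 CPM and Pcp4l1 8.74, 6.33 and 0.172 CPM. Grb10 (r = 0.9992) and Ctnnal1 (0.9988) were closest to Nid2, and 1012 genes exceeded 0.95. Pcp4l1 (0.999) and Rgs12 (0.9974) were closest to Lamb3, with 1051 genes over 0.95. Fewer genes ran like the chains with a neonatal peak: 66 exceeded 0.95 for Lama4, led by Fzd4 (0.9967) and Pcdhgc3 (0.9946), and 125 for Lamc1, led by Dip2a (0.9989) and Itfg1 (0.998). Olfml1 (0.9933) and Zbtb4 (0.9928) were closest to Lamb2, Fhl1 (0.9981) and Dvl3 (0.998) to Lama5, Sptan1 (0.9953) to Agrn, and Ylpm1 (0.9963) and Kdelc1 (0.9948) to Lama1. Among the members, Lamb3 and Nid2 (0.966), Lama1 and Nid2 (0.935), Lama4 and Lamc1 (0.933), Lama1 and Lama5 (0.932) and Lama5 and Agrn (0.931) ran most alike, and Lamb2 ran against Nid2 (-0.615).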

How the data were processed

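RNA-seq was deposited for 9 libraries of total RNA, 3 per age, extracted with TRIzol. Per the submitters' processing notes, the authors used FastQC, Trimmomatic 0.39, STAR 2.5.2b, featureCounts of Subread 1.6.3 and DESeq2, and per the file headers the deposited values are raw counts of reads per gene on rn6. The authors' deposited normalized table, a signal of counts divided by size factors, was used only to recover those factors for an alternative. Depth was 13392825 to 22850491 assigned counts per library, and intervals and floors (3 counts) cover counting error only.

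Genes were filtered with filterByExpr (11337 of 17337 kept), scaled by TMM and tested with edgeR 4.0.16 (R 4.3.3) by its quasi-likelihood test over all 9 libraries, without replicate as a term. P-values were adjusted by Benjamini and Hochberg over all genes tested, with 0.05 as the threshold. CPM values are TMM-scaled, and log2 CPM used for likeness has a prior count of 2. Each SE is the log2 change divided by the square root of its F statistic. The script was tested on simulated data. Alternatives were DESeq2 1.42.0, other scalings and filters, a fold threshold, the replicate number as a block, removal of the trend on exon length, and leaving out each library.

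All 9 members are named. Per list and pair of ages the up to 4 genes with the smallest adjusted p, and genes at or under 3 counts in every library of an age, could be named, and the 2 genes with the highest r for each member. Some results that the rule would name are not reported here. The members and lists were chosen with earlier results of these data known. The 3 comparisons of ages share libraries.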

Additional observations from a re-analysis of the deposited data

How the results depend on the processing

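Over 20 alternatives in each comparison, Nid2 kept its call and direction in all 3 pairs of ages, and Lama1, Lama5 and Lamb3 kept theirs in both adult comparisons. Requiring a log2 change of at least 1 left 360, 2648 and 1837 genes called in neonatal against fetal, adult against fetal and adult against neonatal libraries, and 305 against the midpoint. The members called were then 1 in neonatal against fetal, 4 in adult against fetal and 1 against the midpoint. Leaving out 1 library gave 2476 to 4679 genes called in neonatal against fetal and 3004 to 5885 against the midpoint, lowest without a neonatal library. Directions turned for Lama5 in neonatal against fetal (-0.0483 by library size alone, -0.13 to 0.26 with a library left out, lowest without fetal replicate 3), Lama4 in adult against fetal (-0.0282 by library size alone, -0.0905 to 0.16 with a library left out, again lowest without fetal replicate 3), and, with the length trend removed, Lamc1 in adult against fetal (0.16) and Lamb2 in adult against neonatal libraries (0.33); none of these passed the test, and the cause was not tested. With only the 2 compared ages in the fit, Lamb3 in neonatal against fetal (adjusted p = 0.0501) and Lamc1 in adult against fetal (0.0759) were not called.

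Counts not divided by exon length gave alpha chain shares in fetal, neonatal and adult libraries of 2.53%, 1.11% and 0.31% for Lama1, 57.0%, 68.7% and 80.9% for Lama4 and 40.5%, 30.2% and 18.8% for Lama5. Neonatal shares were then 94.1% for Lamb2 and 5.88% for Lamb3.

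Same-numbered libraries did not deviate together (correlations -0.0649 to 0.0521 over 9 pairs). The replicate block gave 3713, 7801, 6985 and 4466 genes and 6, 7, 7 and 8 members called in the 4 comparisons and changed no member's call. The list counts without fetal replicate 3 were chosen after seeing the data. Depth limits Lamc3 in all libraries and Lama1 and Lamb3 in adult libraries.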
